A study of Mus musculus with 29 samples.

Results

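The hypothalamus was profiled 18 h after female BALB/c mice received tumour cells under the skin. The values below come from the 6 arrays labelled 18 h that carry total RNA of replicates 3, 4 and 5, out of 29 arrays of 13 replicates in the series. These arrays were chosen by their labels alone, and each replicate has 1 array with tumour RNA in Cy5 and 1 with tumour RNA in Cy3. In the tumour group, mice of 8 weeks received 100000 cells of 4T-1, a line derived from a mouse mammary tumour, in 100 µl of PBS, and in the PBS group mice of the same strain, sex and age received 100 µl of PBS alone. Both groups were killed by decapitation at the same time after injection. Every array held RNA of both groups, so each value is a ratio of tumour over PBS within an array, given as log2. The direction of the ratios is likely but not settled: it was taken from the labelled dyes, which the scanner files do not name. Nothing in the labels tells if a replicate is 1 animal or a pool. The p-values therefore cover no more than the spread among these replicates and those of 72 and 192 h fitted with them.

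The hypothalamus joins the brain to the endocrine system. Its neurons release peptide hormones such as oxytocin, vasopressin and somatostatin, and set feeding, body temperature and the output of glucocorticoids through the pituitary. It also reads signals of inflammation and of energy stores from the blood, and its peptides are packed in dense-core granules that carry granins such as chromogranin A and are cut to size by processing enzymes.

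The depth of the arrays differed widely. A usable ratio, with both channels above local background and not saturated, was obtained from 70.0% and 83.0% of the spots on the arrays of replicate 3, 49.3% and 25.9% in replicate 4 and 21.9% and 14.8% in replicate 5. Of 8726 named genes, 7365, 4578 and 2191 were measured in replicates 3, 4 and 5, and 1444 genes were measured in all 3 and tested. Only 368 of these had a value on all 6 arrays, so that a dye effect cancels within each replicate. Every other tested gene had at least 1 replicate measured on 1 array alone. The value of such a replicate depends on the dye effect that was subtracted for each probe. None of the higher and lower genes of smallest p named below had a value on all 6 arrays. For 31 tested genes all arrays were of 1 dye orientation.

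Arrays labelled as the same RNAs with dyes exchanged gave like ratios only in replicate 3. There, tumour over PBS on the Cy5 and the Cy3 array correlated at 0.48 across 6026 spots, and at 0.27 with loess within each print block, described below. In replicate 4 the pair of arrays correlated at -0.80 across 2098 spots, and the pair of replicate 5 at -0.43 across 1170 spots, which means that ratios turned to tumour over PBS ran opposite ways on the arrays of a pair. The files do not settle whether the dyes of these 2 replicates were exchanged as labelled, and their tumour over PBS values rest on the labels. Arrays of like orientation correlated at 0.44 and 0.54 between replicates 4 and 5. The Cy5 over Cy3 ratios of replicate 4 followed the mean of the 72 and 192 h arrays of the same print at 0.63 and 0.69, those of replicate 5 at 0.40 for both arrays, and those of replicate 3 at 0.10 and 0.13. After the dye effect had been subtracted, tumour over PBS of different replicates correlated across genes at -0.13 for replicates 3 and 4, -0.03 for 3 and 5 and 0.06 for 4 and 5. These correlations are descriptions, since spots on an array share its labelling and scans.

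**Figure D1:**
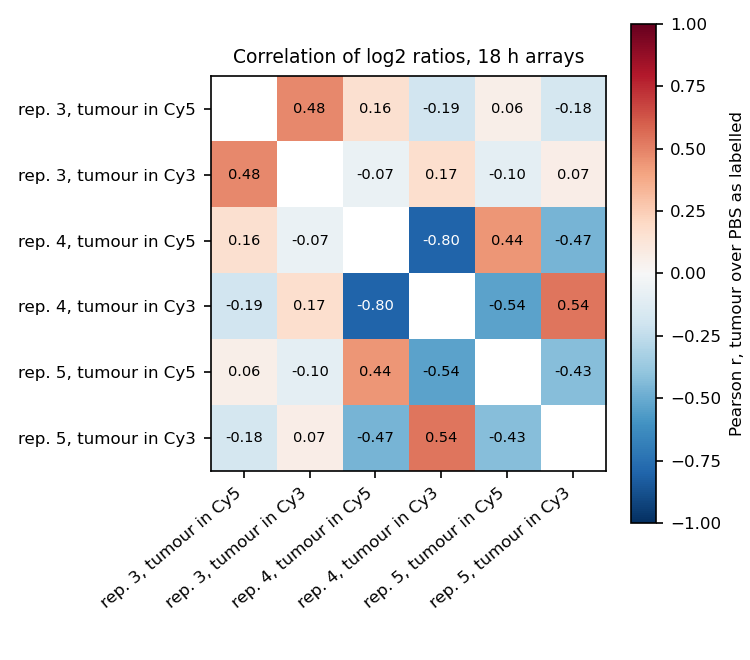
Pearson correlation across spots of the log2 ratio of tumour over PBS, as labelled and before any dye effect was subtracted, for each pair of the 6 arrays at 18 h; red squares are positive and blue ones negative. The arrays of replicate 3 correlate at 0.48, while the arrays of replicate 4 stand at -0.80 and those of replicate 5 at -0.43.

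Replicate 3 also had a gradient along the array. Each array is printed in 12 rows of blocks, and the mean log2 ratio of replicate 3 with tumour in Cy5 ran between 0.77 in row 3 and -0.63 in row 1, with -0.56 in row 12. With tumour in Cy3 it was 0.27 in row 2 and -0.44 in row 12. Replicates 4 and 5 had no such slope shared by both orientations. Since probes of a gene keep their place, the value after loess within each print block, which levels such gradients, is given below beside the main value, after loess over the whole array, for the leading genes and for part of the lists and other genes. The median of replicate 3 over tested genes was -0.52 in rows 10 to 12, which hold 413 of the tested genes, and -0.12 in rows 1 to 9. With loess within each print block the 2 arrays of replicate 3 correlated at 0.27 in place of 0.48. The pairs of replicates 4 and 5 then stood at -0.82 and -0.46. The gradient's part in these correlations was not tested further.

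**Figure D2:**
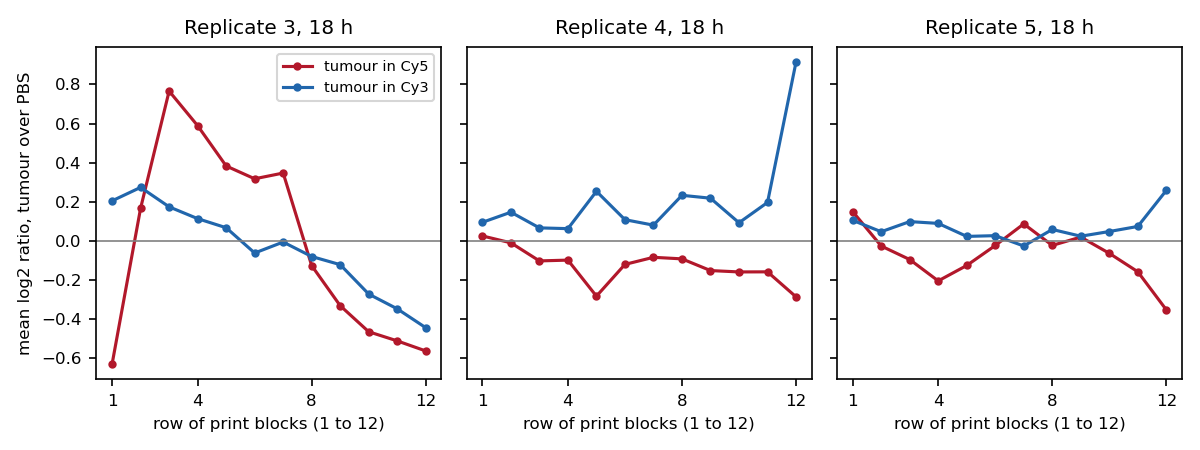
Mean log2 ratio of tumour over PBS of all usable spots (vertical axis) in each of the 12 rows of print blocks (horizontal axis), for the Cy5 (red) and the Cy3 (blue) array of each replicate. Both arrays of replicate 3 decline towards row 12, where they reach -0.56 and -0.44.

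No gene passed the test for a difference between tumour and PBS hypothalamus at 18 h (limma, adjusted p 0.05, 0% of 1444 genes, smallest adjusted p 0.417). An unadjusted p under 0.05 was found for 87 genes, of which 80 were lower (5.54% of genes tested) and 7 higher (0.485%) in tumour mice. The spread behind each p was estimated together with the replicates of 72 and 192 h and shared over genes. It therefore differs from the SD of the 3 replicates given below. With the 18 h replicates alone 48 genes were lower and 6 higher, with 0 past the test (limma, smallest adjusted p 0.870). Most ratios were small: the median standard error was 0.17, 1402 genes (97.1%) had a mean within 0.5 of 0 on the log2 scale, and 1 gene, Chga, exceeded 2-fold. In replicates 4 and 5 the arrays of a pair ran opposite ways, and averaging values of opposite sign brought them nearer 0. The dye effect subtracted was also estimated in part from these pairs. If their dyes were not exchanged as labelled, a difference between tumour and PBS would be averaged out there, which was not tested. The ratios leaned to the lower side, with 31% of tested genes above 0 on average, 6.23% above 0 in all 3 replicates (90 genes) and 19.5% below 0 in all 3 (282 genes). The median over all tested genes was -0.09, and it was -0.23, -0.03 and 0.01 in replicates 3, 4 and 5. With loess within print blocks the median was -0.03, 43.1% of genes were above 0, and 62 genes were lower and 25 higher at an unadjusted p under 0.05, with 0 genes past the test (limma, smallest adjusted p 0.677). Without replicate 3 the median was -0.02, with 46.3% of genes above 0 and 40 genes lower and 19 higher. The gradient's part in single ratios was not tested beyond these values. In RNA of a whole tissue, fewer cells of a type and less RNA per cell cannot be told apart.

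The 12 higher genes of smallest p with a positive ratio in all 3 replicates had means between 0.30 and 0.59, and none passed the test. Rasd1, which encodes a Ras-related GTPase induced by the glucocorticoid dexamethasone, had log2 ratios of 0.41, 0.77 and 0.60 in replicates 3, 4 and 5, a mean of 0.59 ± 0.18 (SD, n = 3) and a 1.51-fold difference (limma, unadjusted p 0.00145, adjusted p 0.417). It was measured with tumour in Cy5 only, where the 3 arrays read 0.01, 0.37 and 0.20 before a dye effect of -0.40 was subtracted, and its mean with loess within print blocks was 0.35. Lasp1, an actin-binding LIM and SH3 domain protein, had 0.53, 0.46 and 0.55. It was positive on 4 of 4 arrays, in both orientations in replicate 3, and its mean of 0.51 ± 0.05 stood at 0.63 with loess within print blocks. Top3a, a DNA topoisomerase gene, had 0.72, 0.44 and 0.39, also positive on 4 of 4 arrays. In replicates 3 and 4 it was measured with tumour in Cy3 only, at 0.41 and 0.13 before correction for a dye effect of 0.31. Its spots were dim, at percentile 3.7 of intensity over measured genes, and those of Lasp1 stood at percentile 19.1. Relative to their means, Rasd1, Lasp1 and Top3a had the least spread between replicates of the 12.

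The other higher genes varied more between replicates. Odc1, ornithine decarboxylase of polyamine synthesis, had 0.06, 0.44 and 0.96, and Vps4a, the ATPase that recycles the ESCRT machinery of endosomes, had 0.15, 0.44 and 0.47. Ush1c, a scaffold protein of sensory cells, had 0.71, 0.43 and 0.10, all measured with tumour in Cy3. Cmss1 had 1.33, 0.11 and 0.17, so that replicate 3 alone carried its mean of 0.54, which was 0.094 with saturated spots kept. Tcn2, which transports vitamin B12, had 0.47, 0.14 and 0.45 and was positive on 4 of 4 arrays. Yipf5, a Golgi membrane protein gene, had 0.91, 0.72 and 0.01, Sox3, a transcription factor of neural progenitors, 0.38, 0.05 and 0.54, Ctps2, a CTP synthase gene, 0.95, 0.01 and 0.33, and Kcnmb4, an accessory subunit of calcium-activated potassium channels, 0.34, 0.51 and 0.04. Each of these 12 genes kept a positive mean with loess within print blocks, between 0.11 for Ctps2 and 0.63 for Lasp1.

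The 12 lower genes of smallest p with a negative ratio in all 3 replicates had means between -1.06 and -0.53, again with none past the test. Tmeff2, a transmembrane protein with EGF-like and follistatin-like domains, had log2 ratios of -0.77, -1.17 and -0.27 in replicates 3, 4 and 5, a mean of -0.74 ± 0.45 (SD, n = 3) and a 1.67-fold lower level in tumour mice (limma, adjusted p 0.417). It was below 0 on 4 of 4 arrays, with replicates 4 and 5 measured with tumour in Cy5 only. Chga, chromogranin A of dense-core granules, had -0.92, -2.04 and -0.22, the lowest mean of all tested genes at -1.06 ± 0.92. It was measured with tumour in Cy5 only, and with loess within print blocks its replicates read -0.02, -2.28 and -0.46, so that replicate 4 carried most of the mean. Lta4h, leukotriene A4 hydrolase, which makes the inflammatory lipid leukotriene B4, had -0.95, -1.14 and -0.26 and was below 0 on 4 of 4 arrays. In replicates 4 and 5 Lta4h was also measured with tumour in Cy5 only. Adam9, a membrane metalloprotease gene, had -0.31, -0.71 and -1.64, and its replicate 3 turned to 0.16 with loess within print blocks.

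The other lower genes had means between -0.64 and -0.53. Ncoa1, a coactivator of steroid and other nuclear receptors, had -0.94, -0.81 and -0.17. Nmd3, which exports the large ribosomal subunit from the nucleus, had -1.0, -0.52 and -0.28, and Dimt1, which modifies ribosomal RNA, had -1.11, -0.55 and -0.19. Prkcz, an atypical protein kinase C, had -0.72, -0.57 and -0.50, the least spread of the 12, and Gabra4, a GABA-A receptor subunit, -0.72, -0.41 and -0.47. Mpped2, a metallophosphoesterase gene, had -0.77, -0.31 and -0.59, Phpt1, a phosphohistidine phosphatase gene, -0.82, -0.89 and -0.13, and Asf1a, a histone chaperone gene, -1.25, -0.34 and -0.27. Of these 12 genes 11 were below 0 on every array that measured them, the exception being Ncoa1, at 0.33 on 1 of 5 arrays. Tmeff2, Chga, Lta4h, Adam9, Nmd3, Mpped2, Phpt1 and Prkcz were measured in replicates 4 and 5 with tumour in Cy5 only. The arrays of a pair ran opposite ways in those replicates, so these signs cover 1 orientation there. These genes lie in print row 12, where the replicate 4 array with tumour in Cy3 averaged 0.91. The share of all tested genes with 1 sign on every array that measured them was not computed.

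The position of the lower genes on the array was uneven. All 12 lay in print rows 10 to 12, which hold 28.6% of tested genes, and so did 58 of the 80 lower genes with an unadjusted p under 0.05. Of these 80 genes 59 had their lowest value in replicate 3. With loess within print blocks 79 of the 80 still had a mean below 0, but their median was -0.28 in place of -0.46, and 37 kept an unadjusted p under 0.05. The means of the 12 leading lower genes then stood between -0.92 for Chga and -0.23 for Nmd3. By contrast, 1 of the 12 leading higher genes lay in rows 10 to 12, and the median of the 7 higher genes with an unadjusted p under 0.05 was 0.38 in place of 0.51.

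**Figure D3:**
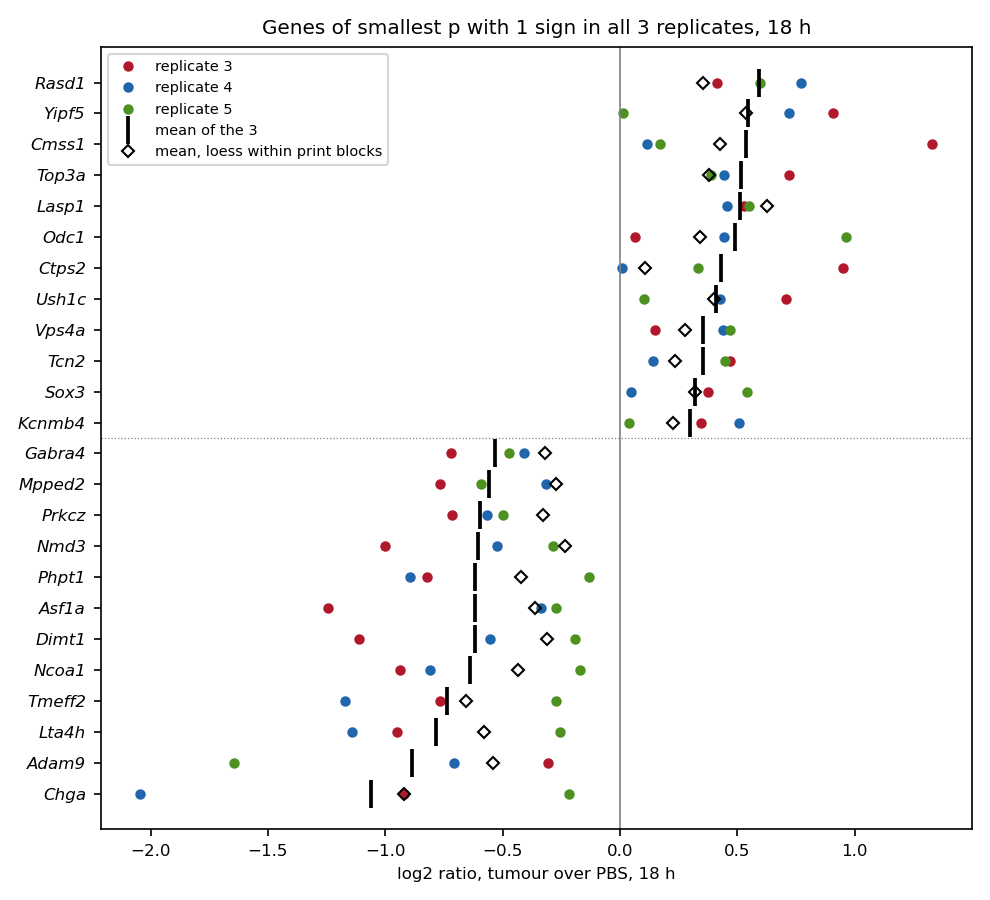
Log2 ratio of tumour over PBS at 18 h (horizontal axis) of the 12 higher and 12 lower genes of smallest p (vertical axis), with each replicate as a coloured point, the mean as a bar and the mean with loess within print blocks as an open diamond. The diamonds of the lower genes lie nearer 0 than their bars, as for Nmd3 at -0.23 against -0.60, while Lasp1 moves to 0.63.

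Genes with the same sign on every array, before any dye effect was subtracted, were sought among the 368 genes with a ratio on all 6 arrays. None was higher on all 6 (0%) and 9 were lower on all 6 (2.45%), with means between -0.38 and -0.16. Madd, which activates Rab3 GTPases of synaptic vesicles, had -0.43, -0.17 and -0.63 on the arrays with tumour in Cy5 of replicates 3, 4 and 5 and -0.68, -0.25 and -0.15 on those with tumour in Cy3. Ankzf1, a gene of ribosome quality control, had a mean of -0.35, Olfr155, an odorant receptor gene, of -0.33 and Angpt4, an angiopoietin gene, of -0.27. Pcp4, a calmodulin-binding protein gene, varied least, between -0.21 and -0.03 over the 6 arrays. The others were Tmem98 at -0.25, Rnf11 and the DNA repair gene Dclre1a at -0.22 each, and Ndufa1, a subunit of respiratory complex I, at -0.21. Of the 9, 8 lay in print rows 9 to 12. With loess within print blocks the 9 means were between -0.31 for Madd and -0.01 for Pcp4. As many genes, 9 in each sense, were higher on all 3 arrays of the one orientation and lower on all 3 of the other.

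Of the peptide hormones by which the hypothalamus is known, none of those that could be tested had an unadjusted p under 0.05 (limma). Of 23 peptide and hormone genes on the print, 20 had a value in 1 replicate or more and 4 in all 3. Oxt, oxytocin, was measured on all 6 arrays and had 0.07, 0.28 and -0.07 in replicates 3, 4 and 5, a mean of 0.09 ± 0.17 (SD, n = 3). Tac1, the precursor of substance P, was higher in each, at 0.02, 0.23 and 0.43, and above 0 on 5 of 6 arrays. Gal, galanin, had -0.83, 0.10 and 0.28, so that replicate 3 stood apart, and Ucn, urocortin, had -0.11, 0.03 and -0.01. With loess within print blocks replicate 3 of Tac1 was -0.10 and that of Oxt -0.09, and the means of Gal and Ucn were 0.02 and 0.11.

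Other peptides were measured in 2 replicates, mostly 3 and 4, and in several the sign of replicate 3 turned with loess within print blocks. Avp, vasopressin, had -0.29 and 0.06, Sst, somatostatin, 0.10 and 0.04, Trh, thyrotropin-releasing hormone, 0.05 and -0.08, and Adcyap1, the precursor of PACAP, -0.03 and -0.02. Cartpt, a peptide that restrains feeding, had 0.43 and 0.19 and Nucb2, the precursor of nesfatin, 0.26 and 0.15, both above 0 in the 2 replicates, but replicate 3 read -0.04 for Cartpt and -0.02 for Nucb2 within print blocks. Gnrh1, gonadotropin-releasing hormone, had -0.48 and -0.30, below 0 on 4 of 4 arrays, Pdyn, prodynorphin, -0.19 and -0.19, and Prok2, prokineticin 2, -0.22 and -0.20. Within print blocks replicate 3 of these 3 genes was above 0, at 0.24, 0.08 and 0.06, and Sst read -0.31 and -0.19. Nmb, neuromedin B, had -0.44 and 0.26, which were 0.40 and 0.12 within print blocks, Npvf, an RFamide peptide gene, 0.73 and -0.77, and Ucn3, urocortin 3, -0.33 in replicate 3 and 0.51 in replicate 5. In replicate 3 alone Ghrh, growth hormone-releasing hormone, had -0.91, Npff -0.78, Nmu, neuromedin U, -0.49 and Hcrt, orexin, -0.23. Ghrh, Nmu and Npff lie in print rows 11 and 12, where that replicate was low as a whole, and read -0.33, 0.09 and -0.09 within print blocks, while Hcrt read 0.05.

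Of the secretory granule and peptide processing genes, 9 of 10 had a value and 5 were tested, of which 4 were above 0 and 1, Chga, below it. Scg2, the granin secretogranin II, was measured on all 6 arrays and had -0.04, 0.09 and 0.04, a mean of 0.03 ± 0.06. Cpe, carboxypeptidase E, which trims peptide hormones, had 0.18, 0.09 and -0.26, and Cadps, which primes dense-core vesicles for release, 0.40, 0.11 and 0.03, above 0 on 4 of 4 arrays. Chga, at -1.06 on average, lay below the other tested genes of this list, whose means were between 0.00 for Cpe and 0.18 for Cadps. It was measured with tumour in Cy5 only. Within print blocks the replicates of Chga read -0.02, -2.28 and -0.46, so that replicate 4 carried most of this contrast. Tpp2, a peptidase, had -0.14, 0.04 and 0.25. Scg3, secretogranin III, had -0.30 and 0.16 and Resp18, a granule protein, -0.91 and -0.09 in replicates 3 and 4, and Ptprn2, a granule membrane protein, 1.26 and -0.53. Pcsk1n, the inhibitor of prohormone convertase 1, had 0.03 and 0.18 in replicates 3 and 5.

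The lists of feeding and hormone receptors, ion channels, solute carriers and vesicle release had medians between -0.11 and -0.05, beside -0.09 over all tested genes. Of the receptors for feeding and hypothalamic hormones 8 were tested, 2 above and 6 below 0, with a median of -0.08 that was 0.02 with loess within print blocks. The neuropeptide Y receptor genes Npy1r and Npy2r had -0.49, -0.22 and -0.08 and -1.34, -0.03 and 0.09, and Cckbr, a cholecystokinin receptor gene, -0.59, -0.42 and 0.01, each lowest in replicate 3. Within print blocks the means of Npy1r and Cckbr were 0.03 and 0.00. Of 13 ion channel genes 5 were above 0 (median -0.05), of 18 solute carriers 3 (median -0.11, and -0.09 within print blocks) and of 8 genes of synaptic vesicle release 3 (median -0.06). Snap91, a clathrin assembly protein of synapses, had -0.33, -0.35 and -0.25, with little spread. Slc14a1, a urea transporter gene, had -0.94, 0.00 and -0.20, and Slc27a3, a fatty acid transport protein gene, 1.63, 0.10 and -0.23.

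Genes that answer to glucocorticoids or inflammation were divided in sign. Of 5 tested glucocorticoid-responsive genes 2 were above 0, with a median of -0.02. Beside Rasd1 at 0.59, Dusp1, a MAP kinase phosphatase, had -0.61, -0.04 and -0.37, and Mt1, metallothionein 1, 0.27, -0.09 and 0.16, with a mean of -0.01 within print blocks. Of 12 cytokine, chemokine and receptor genes 5 were above 0 (median -0.04), with Il10rb, an interleukin 10 receptor subunit, at -0.90, 0.05 and 0.04, the chemokine Cxcl11 at -0.15, -0.14 and -0.10 and Il13 at 0.05, -0.14 and 0.47. Of 6 genes of the interferon response and inflammatory regulation 2 were above 0, with a median of -0.26 that was -0.10 within print blocks and 0.03 in the authors' deposited table. Isg15, a ubiquitin-like protein induced by interferon, had -0.27, -0.08 and -0.57, Tyk2, a kinase of interferon receptors, -0.16, -0.81 and 0.09 and Ptger1, a prostaglandin E receptor gene, -0.41, 0.00 and -0.24. None of these genes other than Rasd1 had an unadjusted p under 0.05.

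Of all 1444 tested genes 996 had a mean below 0 and 19.5% were below 0 in all 3 replicates, and the counts of gene groups are to be set beside these. Of 27 tested genes of oxidative phosphorylation, which make up the respiratory chain and ATP synthase, 23 had a mean below 0 and 13 were below 0 in all 3 replicates. Their median was -0.14, with -0.19, -0.10 and -0.07 in replicates 3, 4 and 5, beside -0.09 over all tested genes. With loess within print blocks the median was -0.11, beside -0.03 over all, and 8 of 27 were above 0. Cox8a, a subunit of cytochrome c oxidase, had -0.55, -0.16 and -0.42, Cox7b of the same complex -0.24, -0.08 and -0.66 and Ndufa11 of complex I -0.47, -0.26 and -0.04. None of the 27 passed the test, and the median kept its sign in each of the 18 other settings tried, between -0.40 and -0.02.

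The other metabolic groups differed in their medians. Of 15 mitochondrial ribosome genes 12 were below 0 (median -0.20, but -0.04 within print blocks), with Mrpl57 at -0.68, -0.24 and -0.37, Mrps14 at -0.63, -0.48 and -0.11 and Mrpl11 at -0.31, -0.39 and -0.24. Of 7 genes of amino acid breakdown 6 were below 0 (median -0.21, and -0.14 within print blocks). There Mmut, methylmalonyl-CoA mutase, had -1.01, -0.42 and -0.18 and Aldh6a1, of valine breakdown, -1.40, -0.26 and -0.06, both lowest in replicate 3. Of 7 glycolysis and citric acid cycle genes 4 were below 0 (median -0.06), among them Pdhb, a subunit of pyruvate dehydrogenase, at -0.33, -0.35 and -0.18. Of 11 antioxidant and detoxification genes 6 were below 0, with Gstp1, a glutathione transferase, at -0.37, -0.15 and -0.37 and the superoxide dismutase gene Sod1 at -0.03, 0.27 and 0.21.

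Cytosolic ribosomal protein genes were evenly divided, with 10 above and 10 below 0 and a median of 0.00, which was -0.39 with median centring. Rps27 had 0.37, -0.01 and 0.37 and Rps4l -0.22, -0.27 and -0.10. Protein turnover and folding genes were below 0 for 5 of 8 proteasome subunits (median -0.06), 7 of 8 genes of ubiquitin conjugation and removal (-0.12) and 5 of 8 chaperones (-0.04). With median centring the proteasome and chaperone medians were -0.31 and -0.28, and without replicate 3 they were 0.08 and 0.07. Ube2s, a ubiquitin-conjugating enzyme, had -0.82, -0.14 and -0.16 and the proteasome subunit Psma1 -0.92, -0.02 and -0.12, while Dnajb2, a cochaperone of neurons, had -0.06, 0.38 and 0.15.

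Signalling and structural genes were mixed. G protein subunits, their regulators and Ras-related GTPases were above 0 for 10 of 16 members (median 0.06, but -0.11 with median centring), with Rheb, an activator of mTOR, at 0.26, -0.06 and 0.66 and Rgs1, which limits G protein signals, at -0.64, -0.21 and -0.43. Protein kinases of second messenger pathways were below 0 for 12 of 15 (median -0.12, and -0.02 within print blocks), protein phosphatases for 10 of 14 (-0.07) and growth factors and their receptors for 10 of 16 (-0.17, but -0.10 within print blocks and -0.0041 without replicate 5). Bmp8b, a bone morphogenetic protein gene, had -0.73, -0.47 and -0.13 and Pdgfb -0.45, -0.67 and 0.01. Cytoskeletal genes were evenly divided, 13 to 13, and membrane trafficking genes were above 0 for 10 of 24. Among the latter Chmp4b, an ESCRT subunit, had 0.38, 0.30 and 0.07, beside Vps4a, and Snx5, a sorting nexin, -0.98, -0.46 and -0.14.

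Groups of nuclear proteins and the apoptosis genes were below 0 for most members, as were 996 of all 1444 tested genes. Splicing and RNA-binding genes were below 0 for 19 of 29 (median -0.13, and -0.05 within print blocks), with Snrpd1, a core protein of spliceosomal particles, at -1.28, -0.57 and -0.16. Genes of DNA replication and the cell cycle were below 0 for 10 of 12 (median -0.12), with Rpa2, of the single-strand binding complex, at -0.56, -0.56 and -0.12. Chromatin and histone genes were below 0 for 8 of 13, zinc finger proteins for 8 of 12 and apoptosis genes for 7 of 7, the last with a median of -0.13 that was -0.07 within print blocks. Metalloproteases and their inhibitors were above 0 for 3 of 5, with a median of 0.15, the highest among the lists with 5 or more tested genes. Of the 29 lists with 5 or more tested genes, 24 had a median below 0, 12 lay below the median of all tested genes, and 27 had their lowest replicate median in replicate 3. With loess within print blocks 17 of the 29 medians were below 0, all between -0.14 and 0.13.

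**Figure D4:**
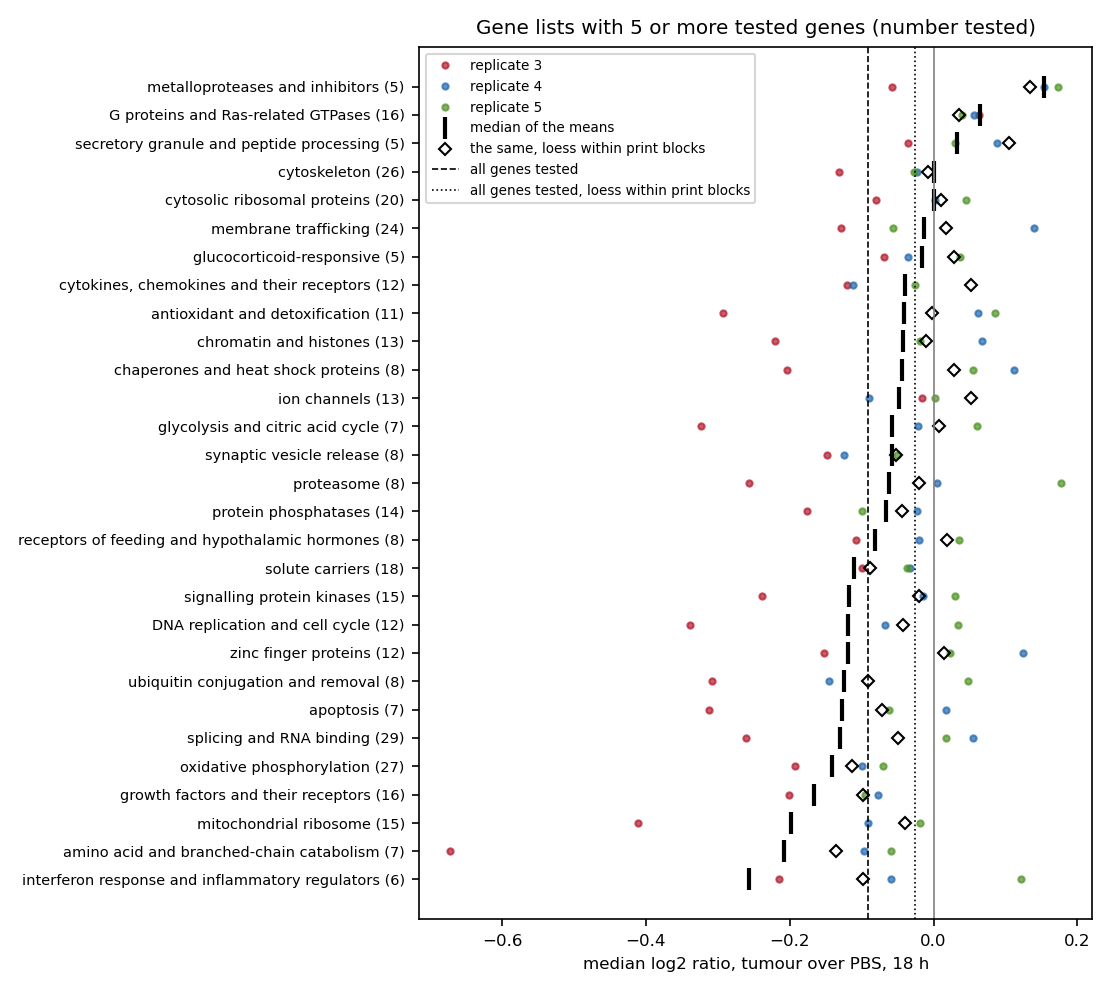
Median log2 ratio of tumour over PBS at 18 h (horizontal axis) of 29 gene lists (vertical axis, number of tested genes in brackets), with each replicate's median as a coloured point, the median of the means as a bar and the same with loess within print blocks as an open diamond; the dashed and dotted lines are the medians of all tested genes, -0.09 and -0.03. The red points of replicate 3 reach -0.67, while the diamonds lie between -0.14 and 0.13.

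Markers of the tissue and of other cell types were set beside these values, for members with a value in 2 or more replicates. Hypothalamic identity markers were measured in 1 replicate or more for 11 of 12 genes, and of 9 with 2 or more replicates 3 were above 0 (median -0.02). Markers of neighbouring brain regions were measured too, for 9 of 14, with 1 of 7 above 0 (median -0.15). Neuron markers were above 0 for 7 of 16 (median -0.06), astrocyte markers for 0 of 4 (-0.17) and oligodendrocyte and myelin markers for 4 of 7 (0.07). Of the microglia and macrophage markers 1 of 5 was above 0 (median -0.03), Itgam, an integrin of these cells, with 0.37 and 0.86 in replicates 3 and 5, while P2ry12 was the lowest, at -0.54. Blood cell markers were above 0 for 3 of 6 (between -0.93 for Cd52 and 0.64 for S100a9), endothelial and mural markers for 4 of 4 (median 0.21), choroid plexus and ependyma markers for 1 of 4, pituitary markers for 2 of 3 and markers of meninges and fibroblasts for 2 of 3, with Col1a2 at 0.81 and 0.32 in replicates 3 and 4, which were -0.07 and 0.14 within print blocks. Over all 5148 genes with 2 or more replicates the median was -0.04 and 2279 were above 0. Of the 11 marker lists 6 had no member measured in all 3 replicates, and entered no test in the main setting. With 2 of 3 replicates enough, 68 marker genes were tested and 0 passed (limma, smallest adjusted p 0.666), with 3 higher and 3 lower at an unadjusted p under 0.05. Over all 5148 genes tested in that setting 144 were higher and 240 lower at that level. The part of these cells in the ratios was not tested.

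The 18 h ratios were then set against those at 72 and 192 h, at which 3 replicates each had named arrays with PBS RNA of their own. At both later times replicate 1 was poly(A) RNA on another print, with tumour in Cy5 only. Replicate 3 of 192 h was also on another print than the 18 h arrays. Time is therefore partly mixed with RNA kind, print and dye orientation in this comparison. Of the 738 genes measured in every replicate of all times, none passed the test of 18 h against the mean of the later times (limma, adjusted p 0.05, 0%, smallest adjusted p 0.316), while 44 genes were under 0.05 before adjustment. The 5 genes of smallest p were Tmeff2, Ncoa1, Tpp2, Nmd3 and Snx5. Tmeff2 averaged -0.74 ± 0.45 (18 h), 0.20 ± 0.14 (72 h) and 0.27 ± 0.10 (192 h; SD, n = 3 each). Its 18 h values did not overlap the later ones, but it was named for its p in this same comparison. The share of the 738 genes with no such overlap was not computed. The log2 difference of the 18 h mean from the later average was -0.97, with a standard error of 0.21. Tpp2 ran in the other sense, with 0.05 ± 0.19, -0.35 ± 0.27 and -0.79 ± 0.14 in the order of the times.

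The later ratios of the leading genes at 18 h lay on both sides of 0. These genes were chosen by their p and sign at 18 h. Ratios nearer 0 at other times therefore cannot show a change with time. The 12 lower genes had means between -0.09 and 0.44 at 72 h and between -0.25 and 0.38 at 192 h, with 6 and 10 of them above 0. The 12 higher genes had means between -0.57 and 0.25 at 72 h and between -0.54 and 0.31 at 192 h, with 7 and 6 above 0. Rasd1 was positive in all 9 replicates, with 0.59 ± 0.18 at the first time, 0.24 ± 0.22 at the second and 0.31 ± 0.13 at the third (SD, n = 3 each), and the difference between the first and the later ones did not pass (limma, log2 difference 0.31 with a standard error of 0.18, adjusted p 0.769). Its sign at 18 h was part of the rule that named it. The share of all genes with 1 sign in 9 replicates was not computed. Its 18 h arrays, with tumour in Cy5 only, read 0.01, 0.37 and 0.20 before a dye effect of -0.40 was subtracted. Chga, with 5 later replicates, had 0.20 and 0.68 at 72 h and 0.49, 0.40 and 0.26 at 192 h, all above the 18 h values.

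**Figure D5:**
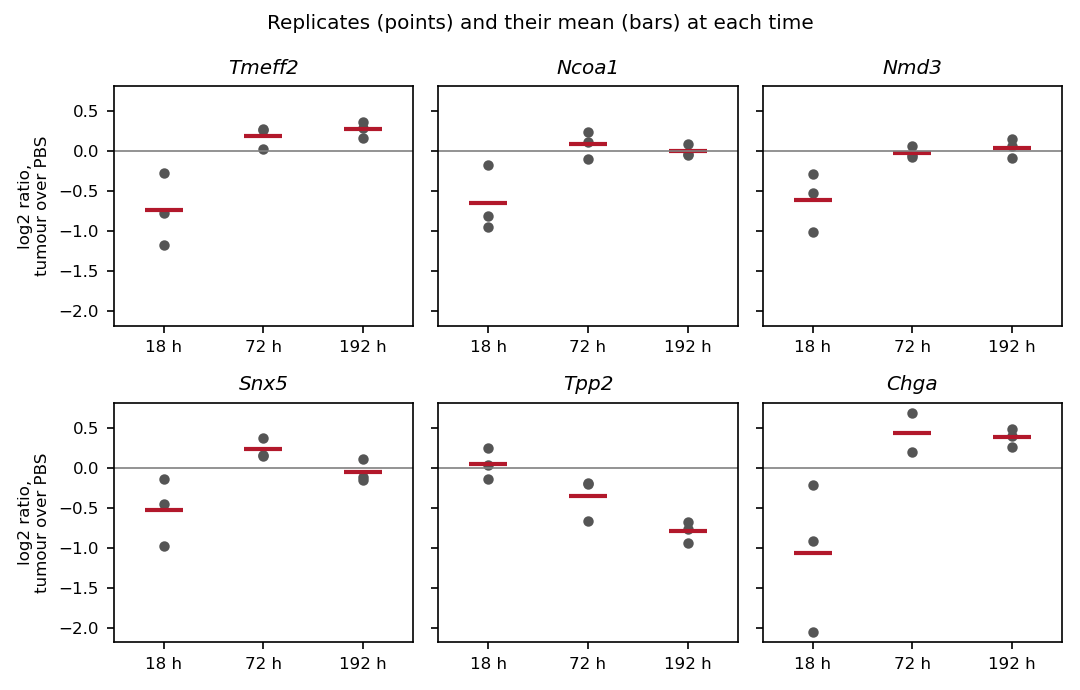
Log2 ratio of tumour over PBS (vertical axis) at 18, 72 and 192 h for the 5 genes of smallest p between 18 h and the later times and for Chga, with replicates as points and their mean as a bar. Tmeff2, Ncoa1, Nmd3, Snx5 and Chga are lowest at 18 h, and Tpp2 is highest there. None of the differences of the 5 genes passed the test, and that of Chga was not tested.

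Replicates 1 and 2 at 18 h, of poly(A) RNA on another print, could be compared spot by spot only, since the given probe names match the spots poorly there. Their 4 arrays, all with tumour in Cy5, had usable ratios for 50.7% to 80.1% of spots. Across 7814 spots the means of the 2 replicates correlated at 0.42, and 61.5% of spots had the same sign. Beyond 2-fold in both replicates 0 spots were higher and 72 were lower in tumour. With no array in the other orientation, a dye effect and a difference between tumour and PBS cannot be told apart in these spots. On the 6 arrays of replicates 3, 4 and 5, 0 of 9078 named spots were measured in the tumour channel of all 6 with none in the PBS channel, and 0 the other way round, while 455 were measured in both channels of all 6.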

How the data were processed

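The authors printed oligonucleotide arrays in house and hybridised tumour RNA against PBS RNA, per the labels. The deposited scanner files, 3 scans per array, hold spot intensity already corrected for local background, the background intensity, a saturation fraction and quality flags of another kind, per the file headers. The authors' deposited value tables, treated as a score, hold a centred ratio per spot of unstated log base. Which scanner, image software and normalization the authors used is not given in the sources used here.

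Log2 ratios were computed from the deposited intensities with R 4.3.3 and limma 3.58.1. A spot was dropped from a scan if marked as unmeasured, if saturated, or if a channel was at or below 0. Loess (span 0.3, 4 iterations) was applied to every scan, and the scans of an array were averaged. From each ratio the dye effect of its accession was taken off (7928 accessions, SD 0.30), estimated as the average of Cy5 over Cy3 in the 7 dye-swapped replicates. Ratios were turned to tumour over PBS, taking Cy3 as channel A, and averaged per replicate.

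Probe names came from the supplied platform annotation (8997 accessions with 1 symbol and 12 with several, which were not named; 8909 matched a current gene record; 1002 of 10080 spots not listed). Accessions spotted at 2 places correlated in intensity at 0.33 over 55 accessions. A gene was its brightest probe and was tested where all 3 replicates had a value. One limma model with a mean per time shared the spread over 5184 genes (prior degrees of freedom 6.96), two-sided, with Benjamini-Hochberg adjustment. The number of arrays limits the precision.

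The genes named were up to 12 of smallest p per direction with 1 sign in all replicates, up to 10 per direction with 1 sign on all 6 arrays, up to 3 members of each list with 5 tested genes, measured peptide and granule genes, the 5 of smallest p between times and the 2 brightest members of each marker list. P2ry12, Cd52 and S100a9 were named after their values were seen, as the extremes of their lists. The arrays and the 50 lists were chosen with earlier results of these data known, and lists are described by counts and medians, with no test. Scripts were tested on simulated data with the real missing values. Alternatives covered background, normalization, dye, saturation, scan, brightness, replicates, probes, samples and the authors' table. Same-numbered replicates of different times could not be shown to be paired.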

Additional observations from a re-analysis of the deposited data

Results flagged for a closer look

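For 5 named genes measured in all 3 replicates at 18 h, but in too few later ones for the test between times, every later replicate that measured them had the sign opposite to all 3 replicates of 18 h. In none of the 5 was that difference tested. Only named genes were searched, part of them named for having 1 sign at 18 h. The share of all genes with such opposite signs was not computed, so the count of 5 cannot be set beside it. Chga had a mean log2 ratio of tumour over PBS of -1.06 at 18 h and was above 0 in 5 of 5 later replicates. Cmss1 had 0.54 at 18 h, or 0.094 with saturated spots kept, and was below 0 in 3 of 3 later replicates. Madd had -0.38 at 18 h and was above 0 in 4 of 4, and Ankzf1 had -0.35 and was above 0 in 5 of 5. Hspb2, a small heat shock protein gene, had -0.19 and was above 0 in 4 of 4. Tmeff2 and Slc14a1, at -0.74 and -0.38 at 18 h, were above 0 in 6 of 6 later replicates, and their difference between times was tested and did not pass (limma, adjusted p 0.316 and 0.769). Chga, Madd, Ankzf1 and Cmss1 all lie in print rows 11 and 12.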

How the results depend on the processing

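At 18 h 0 genes passed the test under all 18 alternatives (limma, smallest adjusted p between 0.0586 without replicate 4 and 0.990), and 0 passed between 18 h and the later times under all 17, as with each replicate left out in turn. With the replicate number as a block the count between times was 0 (smallest adjusted p 0.226). Same-numbered replicates correlated with those of 18 h at 0.01 to 0.13 over 4 pairs and other replicates at -0.12 to 0.07 over 14, so the number is not shown to pair samples. The median over tested genes kept its sign, between -0.16 with median centring and -0.0048 in the authors' table, and between -0.13 and -0.02 with 1 replicate left out. Lower and higher genes at an unadjusted p under 0.05 numbered 80 and 7 in the main setting, 37 and 21 in the authors' table, 130 and 13 with arrays as values, 240 and 144 with 2 of 3 replicates enough, 48 and 6 with the 18 h replicates alone, 49 and 6 on their print alone, 52 and 10 with the fullest scan, 12 and 1 with both orientations required, and 7 and 4 with that and loess within print blocks, a setting chosen after seeing the data. Without replicates 3, 4 and 5 in turn they were 40 and 19, 193 and 28, and 215 and 147. The share of genes above 0 was 31% in the main setting, 46.9% in the authors' table, 44.3% with 2 of 3 replicates enough and 46.3%, 28.7% and 46.6% without replicates 3, 4 and 5. The 35 genes named for their own p or sign kept that sign in 557 comparisons and turned in 4. They were named from these same arrays, so the count does not measure how firm their signs are. Tpp2 stood at -0.11 without dye correction and -0.028 in the authors' table. With 1 replicate left out it stood between -0.0502, without replicate 5, and 0.144. Ctps2 stood at -0.0319 in the authors' table. The cause was not tested. The other 85 named genes with 3 replicates, given as values with no test, had the other sign in 70 of 1364 comparisons, 8 of them with loess within print blocks. List medians moved by more than the spread of replicates in 79 of 514 comparisons. Dim or unusable spots left 7282 of 8726 genes untested at 18 h.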
